A study of Mus musculus with 20 samples.

Results

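The cells described here were multipotent progenitors (MPP) of mouse bone marrow, sorted with leptin receptor protein on the surface (Lepr+ MPP) or without it (Lepr- MPP). Both groups were chosen by their labels alone, and they made up 10 of the 20 libraries of the series, 5 in each group. The other 10 were Lepr+ and Lepr- haematopoietic stem cells (HSC) from the same sorts. All mice were C57BL/6, 7 to 9 weeks old, and the labels name no treatment, transgene or deletion in any group. Marrow of 2 mice was crushed from hind limb, hip and spine bones for each replicate, partly depleted of lineage-positive cells, and gated as negative for lineage antigens and positive for Sca-1 and c-Kit. MPP lacked both CD150 and CD48 on the surface, and HSC carried CD150 without CD48. Each library came from 1000 to 8000 pooled cells, so a gene with fewer expressing cells and a gene with less RNA per cell cannot be told apart.

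Multipotent progenitors are the short-lived offspring of stem cells that still give rise to all blood lineages, and they begin to switch on lymphoid, myeloid or red-cell programmes before they commit. Leptin is the hormone of fat tissue, and its receptor signals through the kinase JAK2 and STAT transcription factors, with SOCS proteins as feedback inhibitors. In marrow the receptor is best known as a marker of perivascular stromal cells, which make the chemokine CXCL12, stem cell factor and adiponectin and form the niche in which stem cells lie.

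The 10 MPP libraries held 9532993 to 29933041 counts in genes, and 14972 to 21911 genes had at least 1 count. Within both groups, replicates 4 and 5 were the shallowest. The Lepr+ libraries 4 and 5 also had the largest mitochondrial share of gene counts, at 3.03% and 4.46% against 0.787% to 1.77% in the other 8, and the largest share in their 10 most abundant genes, at 14.7% and 12.7% against 3.21% to 7.43%. Their mean correlation with the rest of their group was 0.844 and 0.893. Levels are given below as CPM, counts scaled to a common library size, with the SD over 5 libraries, and lists of values follow replicates 1 to 5. Blood genes were abundant in both groups: Ptprc, which encodes the leukocyte antigen CD45, had 187 ± 69.1 CPM without and 167 ± 109 CPM with the surface receptor, and Kit had 883 ± 167 and 834 ± 408 CPM (SD, n = 5). Of 19 tested pan-haematopoietic genes none passed the test described below, and their median log2 fold change was -0.14. Yet 16 of the 19 were negative, the median was negative in each of the 5 pairs (-0.20 to -0.11), and the summed level was lower in Lepr+ MPP in 5 of 5 pairs, at 5947 to 8431 CPM against 6108 to 9174 CPM. Lepr+ MPP also carried RNA of genes that blood cells are not known for, described next.

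Single genes of stroma, matrix, fat and vessels rose in Lepr+ MPP, among them Cxcl12, Adipoq, Fabp4, Dcn and Aplnr, and a few red-cell and T-cell receptor genes fell. In edgeR's quasi-likelihood test, 33 of 16509 genes passed an adjusted p of 0.05 (0.2% of those tested). Of these, 29 were higher in Lepr+ MPP (0.176%) and 4 were lower (0.0242%). All 5 Lepr+ libraries lay above all 5 Lepr- libraries for 197 genes (1.19%) and below them for 74 (0.448%), and 25 of the 29 and 4 of the 4 were among these. With the replicate number, which marks 1 pool of mice, as a block, 17 genes passed (0.103%), 15 higher and 2 lower. They shared 11 with the 33: Fabp4, Plpp3, Gpm6a, Aplnr, Igfbp5, Lrg1, Dcn, Cxcl12, Clu, Pklr and Tcrg-C1. The other 22 had adjusted p from 0.05003 to 0.113 with the block.

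The number of genes that passed depended on nearly every library. Leaving out replicate number 1, 2, 3, 4 or 5 from all groups left 12, 0, 0, 5 and 1 genes in edgeR, with 613 and 554 genes at an unadjusted p under 0.05 where none passed. Leaving out Lepr- MPP replicate 1, 2, 3, 4 or 5 alone left 4, 4, 4, 5 and 11, and leaving out Lepr+ MPP replicate 1, 2, 3, 4 or 5 alone left 49, 6, 15, 9 and 5. The dates in the deposited names fall in June for replicates 1, 3 and 5 and in July for 2 and 4, in all groups. June libraries alone gave 0 genes (556 at an unadjusted p under 0.05) and July libraries alone 0 (367). Without Lepr+ libraries 4 and 5, and likewise without both pairs 4 and 5, none passed in edgeR. At an unadjusted p under 0.05 there were 699 and 658 genes against 728 in all libraries. With no difference at all, a share of 0.05 of the tested genes would reach an unadjusted p under 0.05. All counts at that threshold in this paragraph lay below that share of the genes tested in their fits. Over the alternatives in which they could be tested, leaving aside fits to 1 month, all 33 genes kept their sign. Tcrg-C1 passed in 23 of 29 of these fits, Gpm6a in 22 of 30, Fabp4 and Plpp3 in 19 of 30, Aplnr in 18 of 30, Lrg1 in 13 of 30 and Igfbp5 in 12 of 30. Each of the other 26 passed in 10 or fewer.

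Transcripts of the sorted receptor itself were uneven. Lepr had 0.605, 0, 0, 0.767 and 0 CPM in Lepr- MPP and 0.261, 27.1, 30.5, 38.8 and 19.7 CPM in Lepr+ MPP. Lepr+ replicate 1 lay inside the range of the Lepr- libraries, and the other 4 lay far above it. The log2 fold change was 6.41 ± 1.62 (SE, back-calculated from the test statistic), with an adjusted p in edgeR of 0.145. Leprot, the neighbouring gene whose product governs receptor traffic, overlapped between the groups at 95.8 ± 25 and 90.0 ± 15.1 CPM. On GRCm38 Lepr lies on chromosome 4 from 101717404 to 101815352 on the plus strand.

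Genes of the marrow stromal cell were the clearest group. Of 31 on the list, 29 were tested, 7 rose in Lepr+ MPP and none fell. Over all genes tested 0.176% rose and 0.0242% fell, while 8458 of 16509 had a positive log2 fold change and 8024 a negative one. These shares are the background for the calls and signs of every list in this report. Of those tested, 13 had Lepr+ libraries all above the Lepr- ones (1.19% over all genes), and 26 had a positive log2 fold change. The median of the tested members was 6.32 against 0.01 for all genes tested, with 5.96 within June and 7.08 within July. It was 6.18 when the 7 tested members with 0 counts in Lepr- MPP were set at a bound of 3 counts. Genes near 0 in Lepr- MPP entered the test through their level in other groups, so such counts and medians describe tested members and not whole lists. Cxcl12, the chemokine that holds stem cells in the marrow, had 0.227, 1.59, 0.849, 0.209 and 2.89 CPM in Lepr- MPP and 8.64, 342, 394, 598 and 311 CPM in Lepr+ MPP. The groups did not overlap, and Lepr+ replicate 1 stood far below the other libraries of its group. Cxcl12 rose by a log2 fold change of 8.19 ± 1.57 (edgeR adjusted p = 0.0384, and 0.0271 with the block).

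Adipoq encodes adiponectin, a hormone of fat cells that marrow stromal cells also make. It had 0 counts in all 5 Lepr- MPP libraries, while the Lepr+ libraries had 1.24, 30.1, 19.1, 35.7 and 39.1 CPM. Taking 3 counts over the group as the floor, the level was at least 745-fold higher (edgeR adjusted p = 0.0339, and 0.0612 with the block). Igfbp5, a secreted binding protein of insulin-like growth factors, had 0.151 CPM in Lepr- replicate 1 and 0 in the other 4, and 1.47, 41.3, 38.2, 23.3 and 38.9 CPM in Lepr+ MPP (log2 9.48 ± 1.62, edgeR adjusted p = 0.0253). Serping1, the inhibitor of complement C1, rose from 0.135 ± 0.208 to 43.1 ± 31 CPM (edgeR adjusted p = 0.0384, and 0.05003 with the block). Fbln5, a protein of elastic fibres, had 0 counts in Lepr- MPP against 2935, at least 1030-fold higher. Chrdl1, a secreted antagonist of bone morphogenetic proteins, and Esm1, a secreted proteoglycan, were also among the 7, with 1 count each over the 5 Lepr- libraries and 1224 and 991 counts in the Lepr+ libraries. Chrdl1 had 0 counts in Lepr+ replicate 1 and so overlapped (edgeR adjusted p = 0.0339, and 0.05003 with the block). Esm1 had 1 count in Lepr+ replicate 1 and 467 in replicate 4 (edgeR adjusted p = 0.0384, and 0.0547 with the block).

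Other stromal genes moved the same way without passing. Vcam1, an adhesion molecule of stroma and vessels, had 9.80, 13.9, 18.3, 15.7 and 16.8 CPM in Lepr- MPP and 6.62, 105, 67.9, 139 and 68.7 CPM in Lepr+ MPP. Here Lepr+ replicate 1 was the lowest of all 10 libraries (log2 2.38 ± 0.73, edgeR adjusted p = 0.327). Kitl, which encodes stem cell factor, had 5 counts in Lepr- MPP and 474 in Lepr+ MPP, with none in Lepr+ replicate 1. Pdgfra and Ebf3, a receptor and a transcription factor of marrow stroma, had 0 counts in Lepr- MPP and 422 and 188 counts in Lepr+ MPP (edgeR adjusted p = 0.145 and 0.22). Pdgfrb, a receptor of mural cells, had means of 41.6 and 40.7 CPM in the Lepr- and Lepr+ groups.

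**Figure D1:**
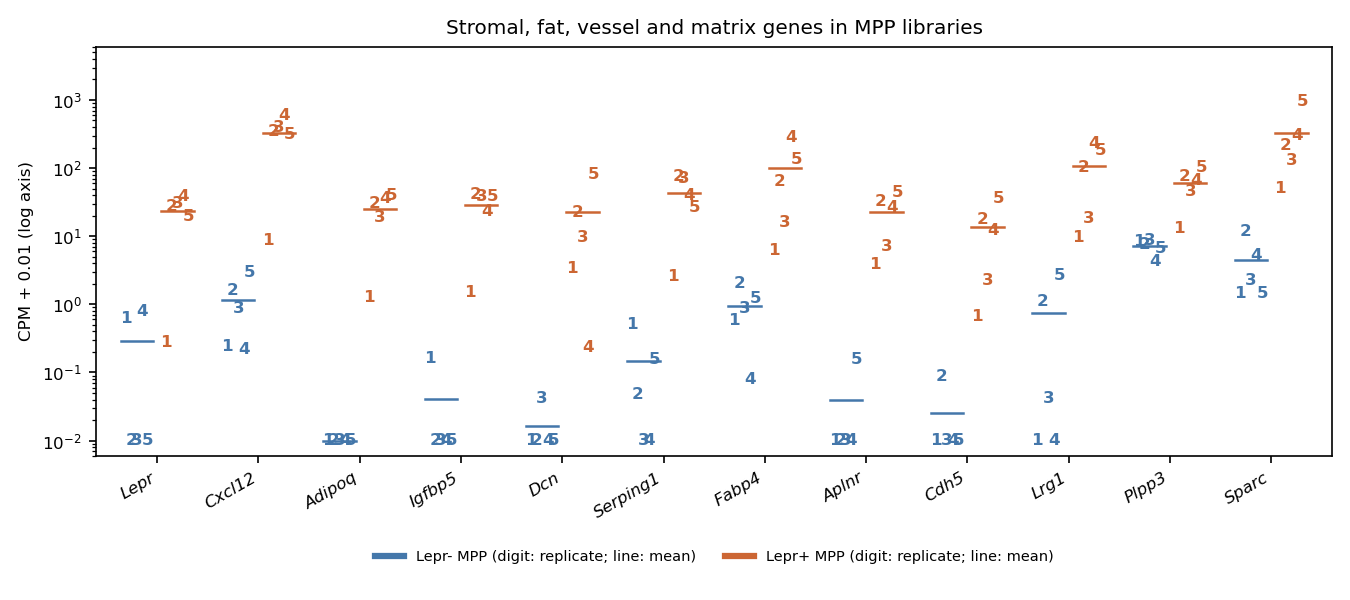
Levels of Lepr and of stromal, fat, vessel and matrix genes in the 10 MPP libraries, as CPM with 0.01 added on a log axis, with digits for replicates 1 to 5 and lines for group means. Lepr+ replicate 1 lies lowest of its group for 11 of the 12 genes shown, with Cxcl12 at 8.64 CPM against 311 to 598 CPM in the other 4.

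Extracellular matrix genes formed the second group. Of 40 on the list, 37 were tested, and their median log2 fold change was 4.91. With the Lepr+ libraries above, 16 had no overlap (1.19% over all genes). For genes near 0 in Lepr- MPP, a few counts are enough for that. None fell and 4 rose. The 4 that rose were Dcn, Col1a2, Col3a1 and Sparc. Dcn encodes decorin, a small proteoglycan that binds collagen, and had 1 count in all Lepr- MPP together against 1710 in Lepr+ MPP. Its Lepr+ values were 3.36, 22.0, 9.69, 0.220 and 79.5 CPM, so that replicate 4, not replicate 1, was lowest here. The count ratio was 1790, with a 95% exact binomial interval of 322 to 70900 (edgeR adjusted p = 0.0384, and 0.0295 with the block). Col3a1, a fibrillar collagen, likewise had no count in Lepr+ replicate 4 and 8.94 to 76.0 CPM in the other 4, against 3 counts in all Lepr- libraries together (block 0.0605).

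Sparc, a collagen-binding secreted protein, had 1.44, 11.8, 2.27, 5.16 and 1.44 CPM in Lepr- MPP and 50.7, 218, 128, 299.8 and 937 CPM in Lepr+ MPP. Col1a2, a chain of type I collagen, had 12.8, 10.5, 5.57, 20.1 and 18.5 CPM against 50.6, 106, 59.8, 104 and 854 CPM. In both genes the groups stood apart and Lepr+ replicate 5 was the highest library (edgeR adjusted p = 0.0463 and 0.0339, and 0.0850 and 0.0558 with the block). Col1a1, the partner chain, did not pass at 0.303, 1.40, 0.315, 0 and 8.59 CPM against 51.6, 58.0, 20.8, 14.6 and 1829 CPM (edgeR adjusted p = 0.264). Serpinh1, which is not on the list, encodes the chaperone that folds collagen in the endoplasmic reticulum, and it rose by a log2 fold change of 3.83 ± 0.65, from 3.96 ± 1.23 to 56.6 ± 56.8 CPM (edgeR adjusted p = 0.0253, and 0.0510 with the block).

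Bone-forming genes were less even. Ibsp, the bone sialoprotein of mineralising matrix, was the 1 of 9 tested osteoblast genes (of 15 listed) that rose, with 0.0757, 0.303, 0.0314, 0 and 1.01 CPM in Lepr- MPP against 3.10, 28, 47.5, 20.2 and 48.6 CPM in Lepr+ MPP (edgeR adjusted p = 0.0384, and 0.0612 with the block). Bglap, which encodes the osteoblast hormone osteocalcin and shares sequence with Bglap2, was carried by 1 library. It had 618 CPM in Lepr+ replicate 5 and 0.337 to 6.04 CPM in the other 4, against at most 0.866 CPM in Lepr- MPP (edgeR adjusted p = 0.131). Sp7, a transcription factor that defines osteoblasts, had 5 and 29 counts in the Lepr- and Lepr+ groups. The summed level of 15 osteoblast genes was 84.7 to 144 CPM in Lepr- MPP, 126 to 203 CPM in Lepr+ replicates 1 to 4 and 1574 CPM in replicate 5.

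Some vessel genes rose as well. Of 34 endothelial genes, 32 were tested, with a median of 2.52, and 11 had no overlap with Lepr+ above (1.19% over all genes). Of the endothelial genes tested, 5 rose and none fell. Their summed level overlapped between the groups, at 3007, 3857, 3217, 3491 and 2582 CPM in Lepr- MPP and 2810.0, 4321, 3331, 3961 and 3329 CPM in Lepr+ MPP, and was higher with the receptor in 4 of 5 pairs. Aplnr, the apelin receptor of vein and sprouting endothelium, had 2 counts in Lepr- MPP, both in replicate 5, and 3.88, 32, 7.08, 26.6 and 43.8 CPM in Lepr+ MPP. The count ratio was 961 (266 to 7940, 95% exact binomial interval), with an edgeR adjusted p of 0.00796 (0.0151 with the block). Fabp4, a fatty acid carrier of fat cells and capillaries that stands on both the fat and the vessel list, had 0.568, 2.01, 0.849, 0.0697 and 1.23 CPM against 6.23, 64.4, 15.8, 280 and 132 CPM. It rose by a log2 fold change of 6.70 ± 0.96 (edgeR adjusted p = 0.00796). Lrg1, a secreted glycoprotein that acts on vessels, had 0, 1.10, 0.0314, 0 and 2.60 CPM against 9.72, 103, 18.2, 226 and 179 CPM (log2 7.23 ± 1.25, edgeR adjusted p = 0.0253). For all 3 genes the groups did not overlap and Lepr+ replicate 1 was lowest.

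Cdh5, the cadherin of endothelial junctions, had 2 counts in Lepr- MPP and 0.652, 17.8, 2.24, 12.3 and 36.1 CPM in Lepr+ MPP (edgeR adjusted p = 0.0433, and 0.05003 with the block). Sox18, a vessel transcription factor, rose from 3.05 ± 1.31 to 28.9 ± 25.1 CPM, with Lepr+ replicate 1 at 3.88 CPM inside the Lepr- range (edgeR adjusted p = 0.0384, and 0.0525 with the block). Kdr, the main receptor for vascular endothelial growth factor, and Stab2, a scavenger receptor of sinusoids, had all Lepr+ libraries above all Lepr- ones but did not pass, at 1.21 against 29.2 CPM (edgeR adjusted p = 0.157) for Kdr. Pecam1, an adhesion molecule that both endothelium and blood progenitors express, had 74.5 ± 38.1 and 74.3 ± 27.6 CPM.

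Of 18 pericyte and smooth muscle genes 8 were tested, and Kcnj8, a potassium channel of pericytes, rose. With 0 counts in Lepr- MPP, it had 0.587, 16.9, 6.18, 59.8 and 30.9 CPM in the Lepr+ libraries, at least 520-fold more (edgeR adjusted p = 0.0366, and 0.0911 with the block). None of the other 7 passed, and the median of the 8 was 2.20, with 3 genes without overlap (1.19% over all genes). Abcc9, the partner subunit of that channel, had 1 count in Lepr- and 966 in Lepr+ MPP (edgeR adjusted p = 0.0787), Notch3, a receptor of mural cells, had 1.32 ± 1.16 against 7.48 ± 5.53 CPM (edgeR adjusted p = 0.93), and Myl9, a myosin light chain, had 2 and 225 counts (edgeR adjusted p = 0.136). Low in both groups were 3 markers of mural cells chosen after their values were seen: Rgs5 had 0 and 33 counts in the Lepr- and Lepr+ groups, Acta2 had 1 and 32, and Myh11 had 1 and 4. Among 13 tested of 20 fat and lipid genes, Adipoq and Fabp4 rose, 4 had no overlap (1.19% over all genes) and the median was 2.58. Adipoq is also on the stromal list and Fabp4 on the endothelial list, so the fat list had no call of its own. Cd36, a fatty acid transporter, had 0.765 ± 0.765 against 17.3 ± 13.4 CPM without overlap (edgeR adjusted p = 0.486), Cfd, the complement factor adipsin, had 0 and 121 counts (edgeR adjusted p = 0.317), and Plin1, the coat protein of lipid droplets in mature fat cells, had 0 and 10 counts. Summed levels of the stromal list were 1146 to 1545 CPM in Lepr- MPP and 1183, 2718, 2560, 3641 and 2662 CPM in Lepr+ MPP. Lepr+ replicate 1 lay inside the Lepr- range. For matrix genes the sums were 154 to 354 CPM against 469, 1324, 972, 897 and 4622 CPM, and for fat and lipid genes they were 582 to 840 CPM against 574, 1096, 997, 1139 and 1392 CPM, lower with the receptor in pair 1. The part of these marker levels in the other differences between the groups was not tested.

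The remaining genes that rose belonged to none of these lists, though Gpx3 is on the stem cell list. Gpm6a, a surface glycoprotein of nerve cells, had 0, 0, 0.220, 0.209 and 0 CPM in Lepr- MPP and 1.76, 34, 13.0, 146 and 33.4 CPM in Lepr+ MPP (log2 8.95 ± 1.36, edgeR adjusted p = 0.00796, and 0.00162 with the block). Plpp3, a phosphatase of bioactive lipids, had 8.32, 7.62, 8.78, 4.25 and 6.57 CPM against 13.1, 74.4, 45.7, 66.1 and 101 CPM (log2 3.07 ± 0.46, edgeR adjusted p = 0.00796). The groups did not overlap for either gene. Clu, the secreted chaperone clusterin, rose from 1.63 ± 1.64 to 19.1 ± 12.2 CPM with 1 Lepr+ library inside the Lepr- range (edgeR adjusted p = 0.0463, and 0.0354 with the block).

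Modest rises from a clear base level were seen in Tfpi, the inhibitor of tissue factor, at 35.7 ± 3.94 against 102 ± 53.4 CPM (edgeR adjusted p = 0.0433, and 0.0525 with the block), and in Tns2, an adaptor of focal adhesions, at 4.81 ± 1.85 against 14.7 ± 3.64 CPM (edgeR adjusted p = 0.0384, and 0.0558 with the block). Of the 29 genes that rose, Tns2 varied least among the Lepr+ libraries relative to its mean, with 9.33, 13.2, 17.9, 14.7 and 18.1 CPM. Cd302, a lectin receptor, Ccn2, a secreted growth regulator, Sfrp4, a secreted Wnt antagonist, Cyp1b1, a cytochrome P450, and Gpx3, a secreted glutathione peroxidase, completed the set, with fitted rises of log2 2.37 ± 0.48 for Cd302 and 5.20 ± 1.02 for Gpx3. Across the 29 genes, Lepr+ replicate 1 was the lowest library of its group for 27 and replicate 4 for 2, while the highest library was replicate 4 for 15, replicate 5 for 10 and replicate 2 for 4.

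**Figure D2:**
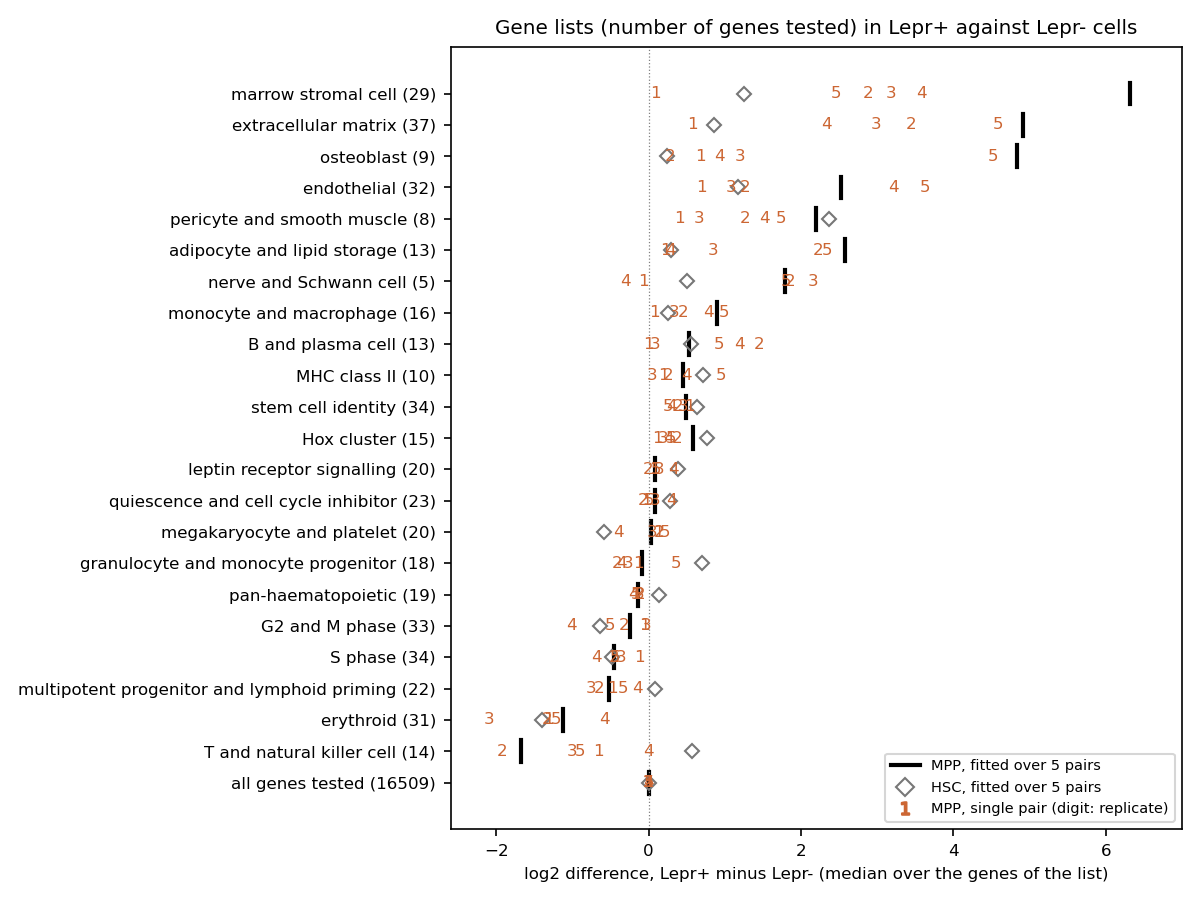
Median log2 difference between Lepr+ and Lepr- cells for each gene list, with the number of genes tested. Black bars are MPP values and grey diamonds HSC values, both fitted with group as the only term and so not paired (in the key: fitted over 5 pairs). Digits are single MPP pairs from log2 of CPM plus 0.5, which pulls genes near 0 towards no difference. Pair 1 lies at 0.09 for the stromal list and the other pairs at 2.46 to 3.58, while all 5 pairs of the erythroid list lie below 0.

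Immunoglobulin genes, which antibody-secreting cells express most, differed widely between libraries. Igkc, the kappa light chain constant gene on chromosome 6, had 0.0757, 0.190, 0.881, 0.558 and 0.0722 CPM in Lepr- MPP and 2.58, 438, 328, 3550.0 and 4.95 CPM in Lepr+ MPP. Every Lepr+ library lay above every Lepr- one, with replicates 2, 3 and 4 far above replicates 1 and 5. Igkc did not pass without the block (edgeR adjusted p = 0.0587) and passed with it (0.0360). Jchain, which joins secreted antibodies, had 0.750, 370, 51.1, 842 and 2.59 CPM in Lepr+ MPP and at most 0.361 CPM in Lepr- MPP (edgeR adjusted p = 0.101). Iglc1, a lambda light chain gene that shares sequence with other lambda constant genes, had 437 CPM in Lepr+ replicate 2 and at most 1.65 CPM in the other 4. Ighm, the mu heavy chain, reached 1968 CPM in Lepr+ replicate 2 and 0.11 CPM in replicate 4, against 55.3 to 193 CPM in Lepr- MPP, so the Lepr+ libraries lay on both sides. Mzb1, a gene of antibody-secreting cells, had 12 counts in Lepr+ and 0 in Lepr- MPP.

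**Figure D3:**
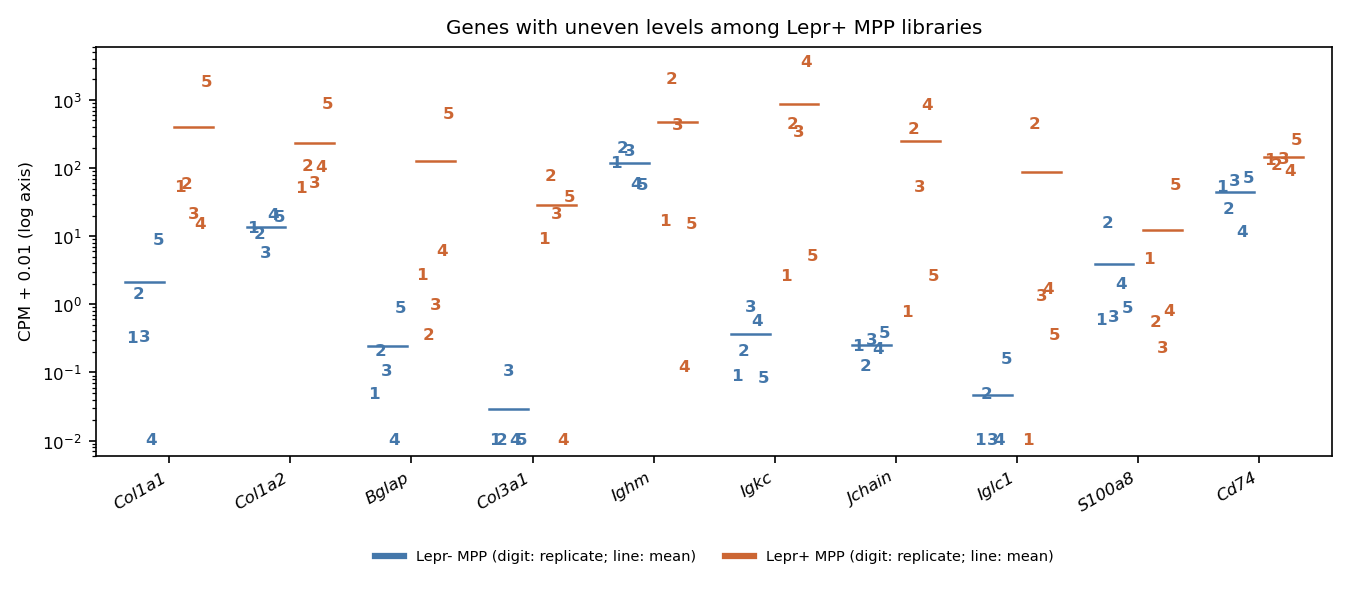
Collagen, osteocalcin, immunoglobulin, S100a8 and Cd74 levels in the 10 MPP libraries, as CPM with 0.01 added on a log axis, with digits for replicates 1 to 5 and lines for group means. Col1a1 (1829 CPM) and Bglap (618 CPM) stand out in Lepr+ replicate 5, Iglc1 (437 CPM) in replicate 2 and Igkc (3550.0 CPM) in replicate 4, so the high genes differ from library to library.

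On the lower side, red-cell genes stood out. Of 33 erythroid genes, 31 were tested, 2 fell (0.0242% over all genes) and none rose. Of those tested, 7 had all Lepr+ libraries below all Lepr- ones (0.448% over all genes). A negative log2 fold change was found for 29 (8024 of 16509 over all genes). Their median was -1.13, and it was negative in all 5 pairs, from -2.10 to -0.58, with -2.03 within June and -0.91 within July. The 2 that fell were Gata1, the transcription factor that directs red-cell and platelet development, and Pklr, the pyruvate kinase of red cells and liver. The promoters of these genes and of Klf1, a red-cell factor that GATA1 is known to act on, are shown because members of this programme stood lower together. Each runs from 250 bases before the RefSeq start site to 50 bases after it on GRCm38.p6, 5′ to 3′ on the gene's own strand, and capitals mark AGATAA or TGATAA, the letters GATA factors bind, or the same read on the other strand.
Gata1, chrX:7967861-7968160, minus strand: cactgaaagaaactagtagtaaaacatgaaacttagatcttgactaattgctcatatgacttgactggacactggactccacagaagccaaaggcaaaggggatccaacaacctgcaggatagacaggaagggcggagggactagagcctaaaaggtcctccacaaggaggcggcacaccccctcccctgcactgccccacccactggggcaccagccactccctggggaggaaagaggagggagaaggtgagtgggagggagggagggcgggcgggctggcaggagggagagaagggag
Pklr, upstream start, chr3:89135892-89136191, plus strand: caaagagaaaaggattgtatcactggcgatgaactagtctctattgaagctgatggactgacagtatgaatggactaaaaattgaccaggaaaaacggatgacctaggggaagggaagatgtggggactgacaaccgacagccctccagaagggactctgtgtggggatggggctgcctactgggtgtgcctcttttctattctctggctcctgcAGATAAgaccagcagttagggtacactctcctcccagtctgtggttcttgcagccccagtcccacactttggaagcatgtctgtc
Klf1, chr8:84901732-84902031, plus strand: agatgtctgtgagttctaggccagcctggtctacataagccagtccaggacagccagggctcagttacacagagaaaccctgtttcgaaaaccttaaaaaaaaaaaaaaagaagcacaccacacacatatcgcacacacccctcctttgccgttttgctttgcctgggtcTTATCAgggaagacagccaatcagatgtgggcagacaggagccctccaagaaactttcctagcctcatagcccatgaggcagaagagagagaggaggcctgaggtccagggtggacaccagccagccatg
The match lay 35 bases before the start in Pklr and 80 bases before it in Klf1, on the other strand, and Gata1 held none in this window. A second RefSeq start of Pklr, with its window at chr3:89136373-89136672, held none either. AGATAA or TGATAA, on either strand, stood in 18.6% of 32851 promoters of this length, and in 14 of 31 promoters (45.2%) of the 26 erythroid list genes that the table holds. It stood in 2 of 24 promoters (8.33%) of 20 stromal list genes, in 5 of 25 (20.0%) of 19 endothelial list genes and in 3 of 22 (13.6%) of 19 genes that rose. These are counts of letters and were not tested.

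Gata1 had 17.4, 42.6, 55.3, 114 and 73.4 CPM in Lepr- MPP and 6.33, 2.77, 9.63, 0.769 and 14.8 CPM in Lepr+ MPP. The groups did not overlap. Gata1 fell by a log2 fold change of 3.14 ± 0.63 (edgeR adjusted p = 0.0433, and 0.0612 with the block). Pklr had 1.97, 3, 10.7, 12.9 and 18.5 CPM in Lepr- MPP and 1 count in all Lepr+ libraries together, a ratio of 870 (156 to 34400, 95% exact binomial interval), with an edgeR adjusted p of 0.0384 (0.0271 with the block). Replicate 1 was the lowest Lepr- library for both genes.

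The other red-cell genes did not pass in edgeR. Klf1 had 21.6, 35.3, 60.4, 107 and 115 CPM in Lepr- MPP and 1.93, 6.45, 2.67, 34.9 and 19.5 CPM in Lepr+ MPP, lower in 5 of 5 pairs (adjusted p = 0.36). Mfsd2b, a lipid exporter of red cells and platelets, had 42 ± 21.5 and 6.60 ± 4.79 CPM without overlap (adjusted p = 0.0766). Car1, a carbonic anhydrase of early red cells, had 87.6, 270.2, 353, 552 and 521 CPM against 3.95, 6.93, 5.22, 68.2 and 125 CPM (adjusted p = 0.533). Tfrc, the transferrin receptor, had 38.7 ± 12.7 and 10.4 ± 5.91 CPM (adjusted p = 1). Late markers were low in both groups: Hbb-bs, a beta globin that shares sequence with its neighbour, had 6.37 ± 8.30 and 5.00 ± 5.52 CPM. The erythroid list was also lower in Lepr+ HSC than in Lepr- HSC, by a median of -1.40. Megakaryocyte and platelet genes, which share factors with red cells, had a median of 0.03 in MPP, with none of 20 past the test.

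**Figure D4:**
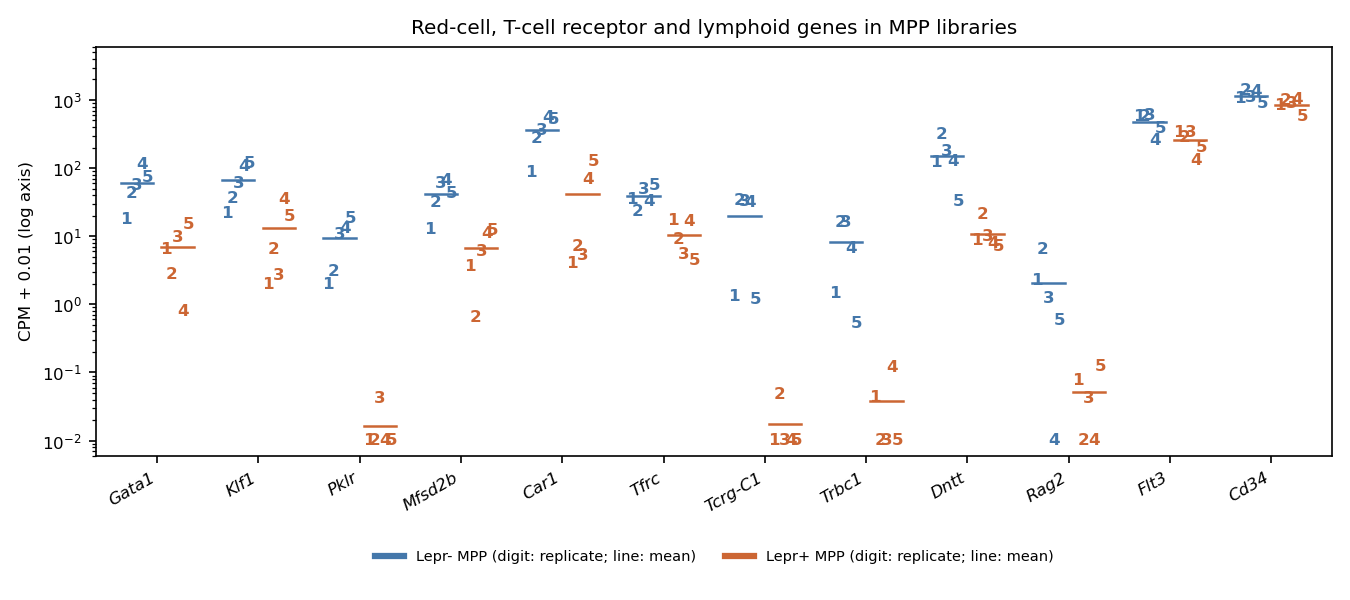
Red-cell, T-cell receptor and lymphoid genes in the 10 MPP libraries, as CPM with 0.01 added on a log axis, with digits for replicates 1 to 5 and lines for group means. Gata1, Pklr, Mfsd2b, Tfrc, Tcrg-C1, Trbc1 and Dntt do not overlap between the groups, with Dntt at 32.4 to 307 CPM in Lepr- and 7.09 to 20.8 CPM in Lepr+ MPP.

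Genes of the lymphoid start made up the rest of the lower side. Tcrg-C1, a constant gene of the T-cell receptor gamma chain on chromosome 13 (19214103 to 19217024), had 1.29, 33, 32.2, 31.7 and 1.15 CPM in Lepr- MPP and 1 count in all Lepr+ MPP together. Replicates 2, 3 and 4 held nearly all of its 2396 Lepr- counts. The count ratio was 2280 (410.0 to 90300, 95% exact binomial interval), and it had the smallest adjusted p in edgeR of all genes tested, at 0.00569 (0.00024 with the block). Trbc1, a beta chain constant gene, followed with 1.44, 16.1, 16, 6.55 and 0.505 CPM against 2 counts in Lepr+ MPP (edgeR adjusted p = 0.0433, and 0.0612 with the block). Reads can be shared among the gamma constant genes and between Trbc1 and Trbc2, so the split between copies is uncertain. Both genes were also near 0 in both HSC groups, with Tcrg-C1 at 0.00737 CPM in Lepr- HSC.

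Cd3e, a CD3 gene of mature T cells, was near 0 in these libraries, with 9 counts in Lepr- and 0 in Lepr+ MPP. Trac and Cd8a had no counts in either group. These genes were chosen after their values were seen. Of 22 genes on the T and natural killer cell list 14 were tested: Trbc1 fell, none rose, and none had a positive log2 fold change. Lck, a kinase of T cells, had 40.7, 62.2, 51.5, 38 and 27.6 CPM in Lepr- MPP and 25.6, 15.8, 26, 4.83 and 21.7 CPM in Lepr+ MPP, without overlap (edgeR adjusted p = 1). Bcl11b, a transcription factor of T-cell commitment, had 0.605, 8.34, 8.74, 3.70 and 0.144 CPM against 5 counts in Lepr+ MPP (edgeR adjusted p = 0.404). The Lepr- libraries with most Bcl11b were the 3 with most Tcrg-C1.

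Dntt, the polymerase that adds bases at receptor gene joins and marks lymphoid priming, had 120.2, 307, 176, 126 and 32.4 CPM in Lepr- MPP and 8.68, 20.8, 9.75, 7.91 and 7.09 CPM in Lepr+ MPP. The groups did not overlap, and the log2 fold change was -3.81 ± 0.99, yet Dntt did not pass (edgeR adjusted p = 0.164, and 0.0932 with the block). Flt3, the cytokine receptor that rises as progenitors lean to lymphoid fate, was lower in 5 of 5 pairs at 569, 565, 594, 258 and 382 CPM against 328, 285, 334, 129.5 and 204 CPM (adjusted p = 1 in edgeR). Rag2, a recombinase gene, had 272 counts in Lepr- and 4 in Lepr+ MPP (edgeR adjusted p = 0.296). Cd34 and Cd48 were lower in 5 of 5 pairs as well, by -0.42 ± 0.17 and -0.98 ± 0.38 on the log2 scale, with edgeR adjusted p of 0.8 and 0.707. None of the 22 tested genes of multipotent progenitors and lymphoid priming passed. Their median was -0.52, with 17 negative, and in HSC it was 0.09.

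Stem cell genes leaned the other way by smaller steps. Of 34 tested, Gpx3 rose and none fell, and 31 had a positive log2 fold change. All Lepr+ libraries lay above all Lepr- ones for 6 (1.19% over all genes): Procr, Ndn, Sult1a1, Gpx3, Trim47 and Cdkn1c. The list shares Esam, Vwf, Tie1 and Tek with the endothelial list and Angpt1 with the stromal list, so its counts and sums are not separate from theirs. Gpx3, like most stromal genes, was lowest of its group in Lepr+ replicate 1, at 5.97 CPM. With the block Ndn and Trim47 rose and Gpx3 did not pass (adjusted p = 0.113). Ndn, a growth-restraining protein, had 26.9, 18.5, 17.3, 15.3 and 34.1 CPM in Lepr- MPP and 46.1, 45.7, 37.6, 39.7 and 49.9 CPM in Lepr+ MPP (edgeR adjusted p = 0.104, and 0.0354 with the block). Trim47, a ubiquitin ligase, had 76.8, 109, 102, 100.3 and 142 CPM against 163, 170.1, 196, 247 and 192 CPM (edgeR adjusted p = 0.158, and 0.0295 with the block). Lepr+ replicate 1 did not stand far below the rest of its group for either gene, unlike for most stromal genes. For Trim47 it was still the lowest Lepr+ library. Procr, the protein C receptor found on long-term stem cells, had 46.0 ± 9.84 and 93.9 ± 21.7 CPM (edgeR adjusted p = 0.136), and Hlf, a stem cell transcription factor, had 410 ± 55.1 and 504 ± 37.7 CPM (adjusted p = 1 in edgeR). The summed level of the 34 genes was 5061 to 5724 CPM in Lepr- MPP and 6302 to 7278 CPM in Lepr+ MPP, with no overlap, and the median log2 fold change was 0.49 in MPP and 0.64 in HSC.

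Cell-cycle genes were slightly lower. None of 34 S phase genes passed, 33 had a negative log2 fold change, and their median was -0.46, with each pair between -0.68 and -0.12. Mcm7, a subunit of the replicative helicase, had 328, 318, 385, 397 and 449 CPM in Lepr- MPP and 299, 229.6, 291, 232 and 288 CPM in Lepr+ MPP (edgeR adjusted p = 0.64). It was the 1 S phase gene without overlap (0.448% over all genes). For 33 genes of the G2 and M phases the median was -0.25, and Mki67, a marker of dividing cells, overlapped at 36.2 ± 20.8 and 30.4 ± 15.4 CPM. Cdkn1c, the inhibitor p57 of resting stem cells, had 4.81, 4.78, 4.72, 4.67 and 6.35 CPM against 7.80, 11.3, 8.88, 19.3 and 19.8 CPM without overlap (edgeR adjusted p = 0.0861).

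Genes of the leptin pathway did not pass. Of 20 tested, none passed in edgeR, 3 had an unadjusted p under 0.05, and the median was 0.08. Socs2, a feedback inhibitor of cytokine receptors, had 15.7, 11.6, 16.1, 1.60 and 9.88 CPM in Lepr- MPP and 37.4, 29.8, 32.8, 32 and 39.3 CPM in Lepr+ MPP. The groups did not overlap, and Lepr+ replicate 1, which held almost no Lepr RNA, was the second highest of its group (log2 1.64 ± 0.40, edgeR adjusted p = 0.131, and 0.0612 with the block). Cish, another such inhibitor, was higher in 5 of 5 pairs at 25.8 ± 9.41 and 42.2 ± 14.6 CPM (edgeR adjusted p = 0.774). Stat3 and Jak2, the main transducers, had 333 ± 100.4 and 337 ± 113 CPM and 72.5 ± 35.4 and 77.7 ± 38.3 CPM. Socs3, the classic leptin-induced inhibitor, had 18.7 ± 9.34 and 16.9 ± 9.14 CPM.

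Cd74, the chaperone of MHC class II molecules, had 51.6, 24.8, 64.4, 11.5 and 70.5 CPM in Lepr- MPP and 129, 108, 135, 88.8 and 257 CPM in Lepr+ MPP. It stood without overlap and passed only with the block (edgeR adjusted p = 0.18, and 0.00903 with the block). H2-Eb1, a class II chain, was higher in 5 of 5 pairs at 16.2 ± 4.59 and 36.5 ± 19.5 CPM (edgeR adjusted p = 0.178). Rhoj, a small GTPase of vessels, and Cd38, a surface enzyme of stem and immune cells, were the remaining genes that passed with the block alone, at 4.72 and 22.3 CPM for Rhoj and 4.71 and 24.9 CPM for Cd38 (block adjusted p in edgeR of 0.0165 and 0.0354). Of 10 tested class II genes the median was 0.45, and for 31 interferon gamma response genes it was 0.11.

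Set beside the stem cells of the same sorts, the difference had the same sign in both gates for most of these genes. All 29 genes that rose in MPP had a positive log2 fold change in HSC, where 17 genes passed in edgeR (0.103%) and 169 with the block (1.02%). The sign alone says little for some: Col1a2 (0.06 ± 0.66), Clu (0.26 ± 0.64), Tfpi, Cd302 and Plpp3 lay within their SE of 0 in HSC. Clu and Cdh5 were higher in 2 of 5 HSC pairs. The HSC also came from the same pools of mice. Of the 29, Lrg1 and Gpm6a passed there too, and with the block Aplnr did as well. Gpm6a rose there from a mean of 0.0245 to 7.65 CPM (edgeR adjusted p = 0.0266). Of the 4 genes that fell, Gata1 and Pklr were also lower in Lepr+ HSC, by -1.50 and -3.94. Mean levels in Lepr+ HSC and Lepr+ MPP, between which no test was made, were 30.8 and 331 CPM for Cxcl12 and 3.60 and 25.1 CPM for Adipoq.

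For 27 of the 29 the MPP difference was the larger one. The 29 were chosen because they passed in MPP, which favours larger MPP differences, so this count is no test. No single gene was shown in edgeR to differ between the gates. The direct test of MPP difference minus HSC difference called 0 of 16509 genes in edgeR (0%), 0 with the block or with limma voom, and 19 with DESeq2. In edgeR the smallest adjusted p was 0.793. An unadjusted p under 0.05 was found for 529 genes in edgeR, below the share of 0.05 expected without any difference. The 5 genes of smallest p were Plpp3, Nkx2-3, Rabgap1l, Nceh1 and Gpx8. Plpp3 had 7.11 and 60.0 CPM in Lepr- and Lepr+ MPP against 11.8 and 15.7 CPM in HSC. Nkx2-3, a homeobox factor, showed the reverse, with 52.8 and 59.0 CPM in MPP and 29 and 76.8 CPM in HSC. The stromal list had a median of 6.32 in MPP and 1.25 in HSC, a difference that was not tested.

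**Figure D5:**
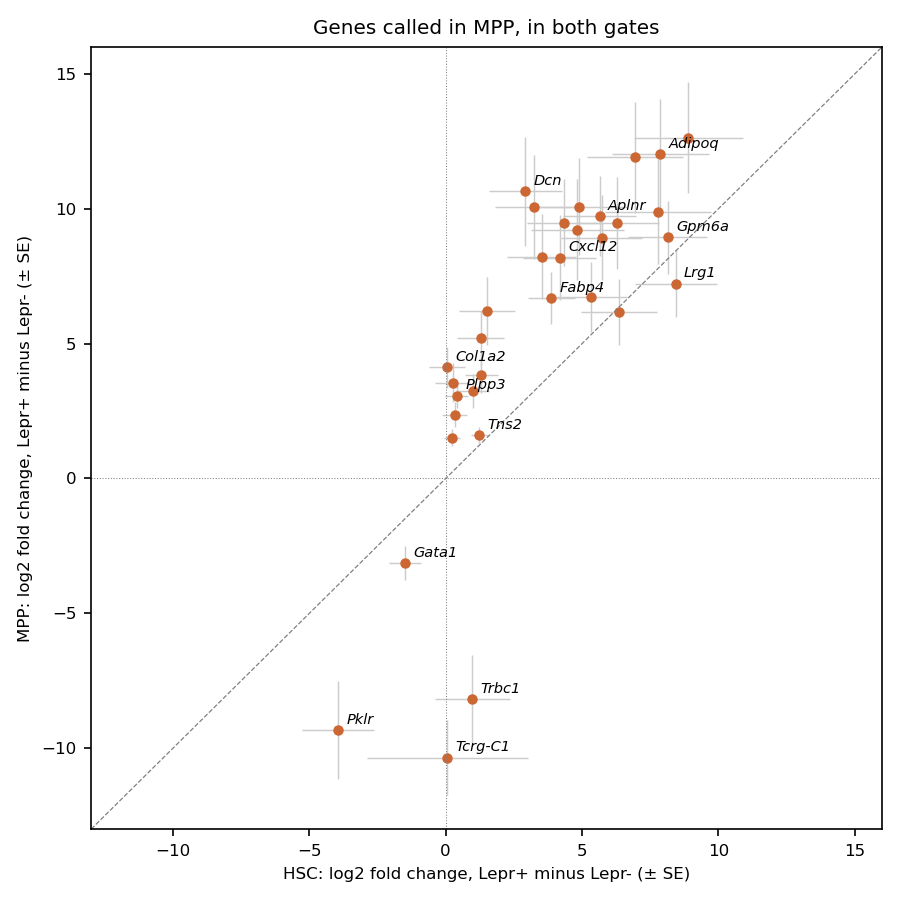
Fitted log2 fold changes between Lepr+ and Lepr- cells in HSC and MPP for the 33 genes called in MPP, with the dashed line marking equal values. Error bars are SE back-calculated from the test statistic. All 29 genes that rose in MPP lie to the right of 0 in HSC as well, Gata1 and Pklr are below 0 in both gates, and fitted values of genes near 0 in a group depend on the prior count.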

How the data were processed

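The 20 libraries were SMART-Seq v4 and Nextera XT libraries, which keep no strand, read in pairs on a NovaSeq6000. The authors deposited 1 table of raw counts per gene for each library. The submitters' processing notes name GRCm38, cutadapt 2.1, STAR 2.7.1a, FastQC 0.11.8, HTSeq 0.11.2 and DESeq2; the counting mode is not given in the sources used here. The 5 lines that name no gene held 22.2% to 38.7% of read pairs in MPP libraries and were left out. Names and positions came from GENCODE M21, which matched 55480 of 55573 identifiers.

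Counts were tested in edgeR 4.0.16 (R 4.3.3; TMM, filterByExpr with minimum count 10 and total 15, robust quasi-likelihood F tests, group as the only term, all 20 libraries), two-sided, with Benjamini-Hochberg adjustment over 16509 genes and a threshold of 0.05. The biological coefficient of variation was 0.747, and 0.635 with the block. Each SE was back-calculated as the absolute log2 fold change divided by the square root of F. It therefore restates the test, is not a separate estimate of error and is unreliable for genes near 0 in a group. The procedure was tested on simulated data. Alternatives used DESeq2 1.42.0, limma voom 3.58.1, other size factors and filters, MPP libraries alone, months and left-out libraries. With group as the only term, the p-values measure the spread between libraries from pools of 2 mice. They treat libraries of the same pool in different groups as independent. With the block, differences between pools are removed and the p-values measure the spread that remains. Intervals and floors on counts hold counting error alone, because amplified reads lack molecular identifiers and are not independent.

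Groups came from the labels. The design text gives 2 mice per replicate and each number carries 1 date in all groups, so a number was read as 1 pool. Deviations from group means correlated at 0.165 to 0.422 in the 5 MPP pairs; over all groups the median was 0.321 (range -0.085 to 0.595) for 30 same-number pairs and -0.115 for 120 others.

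The cells, 33 gene lists and naming rule were chosen with earlier results of these data known. The rule named called genes with a mean of at least 5 CPM that moved alike in 4 or more of 5 pairs, up to 4 genes per list by smallest p, fixed markers and the 5 smallest p between gates. The following were named after their values were seen: Kitl, Pdgfra, Pdgfrb, Ebf3, Sp7, Kdr, Stab2, Rgs5, Acta2, Myh11, Plin1, Ighm, Mzb1, Car1, Cd3e, Trac, Cd8a, Lck, Sult1a1, Trim47, Stat3, Jak2, Socs3, Rhoj and Cd38. Lists were described and not tested. Reads shared by near-identical or overlapping genes cannot be split with certainty.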

Additional observations from a re-analysis of the deposited data

Results flagged for a closer look

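In 50 genes read in both MPP groups, 14 values stood apart from the other 4 libraries of their group by Dixon's criterion for 5 samples, among genes with at least 50 counts in the group. Chance alone flags about 1 in 20 groups of normally distributed values. The criterion was applied to CPM without a log, and genes such as Col1a1 and Col1a2 vary together. The number flagged is therefore no test against that share, and all 14 values were flagged as high. Of the 14, 11 were in Lepr+ MPP, 7 of them in replicate 5. In that library Col1a1 stood at 1829 CPM, Col1a2 at 854 CPM, Sparc at 937 CPM, Bglap at 618 CPM, Dcn at 79.5 CPM, Cd74 at 257 CPM and H2-Eb1 at 70.6 CPM, each the highest of its group. In Lepr+ replicate 4 the high genes were Igkc at 3550.0 CPM and Gpm6a at 146 CPM, and in Lepr+ replicate 2 they were Iglc1 at 437 CPM and Dntt at 20.8 CPM. In Lepr- MPP, Leprot was high in replicate 4 at 139.6 CPM, and Col1a1 at 8.59 CPM and Cdkn1c at 6.35 CPM were high in replicate 5. What set these libraries apart was not tested.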

How the results depend on the processing

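Every called gene kept its sign in each alternative in which it was tested, but the number called did not. Against 33 genes, the fit with the replicate block called 17, DESeq2 213 (199 higher, 14 lower; 885 at an unadjusted p under 0.05), limma voom 54, of which 12 were among the 33, and a fit to the 10 MPP libraries 16, or 16 with the replicate block, where the share of higher calls was 68.8% against 87.9%. June libraries alone, July libraries alone, the set without Lepr+ MPP libraries 4 and 5 and the set without pairs 4 and 5 gave 0 each; the last 2 and the left-out replicates under the block were chosen after seeing the data. Leaving out 1 replicate number, or 1 MPP library, gave 0 to 49 genes, and with the replicate block leaving out 1 number gave 0 to 11 (11, 0, 3, 9 and 3 for numbers 1 to 5). Other size factors (33), no filter (31) and a minimum count of 50 (30) stayed within 1.5 times. The causes were not tested. The difference between MPP and HSC gave 0 genes in every fit with edgeR or limma voom and 19 with DESeq2. Beside the calls counted in the report, the replicate block changed none. Of the 33 genes, 14 had 3 or fewer counts in one group, so depth limits the size of those fold changes.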

Other observations

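Some groups of genes outside the comparisons above are given as values. Mitochondrially encoded genes summed to 9511, 7491, 6906, 10650 and 12570 CPM in Lepr- MPP and to 7487, 8836, 5544, 25630 and 32720 CPM in Lepr+ MPP, higher in 3 of 5 pairs. The fitted log2 fold change was positive for 10 of 10 tested genes, with a median of 0.77 and none past the test. In pairs 1 and 3 the median was negative, at -0.33 and -0.23. Macrophage and monocyte genes summed to 409 to 845 CPM in Lepr- against 770 to 1001 CPM in Lepr+ MPP, higher in 5 of 5 pairs, and none of 16 passed. Dendritic cell genes summed to 443 to 876 CPM in Lepr- against 396 to 603 CPM in Lepr+ MPP, lower in 5 of 5 pairs. The median over the 8 tested genes was 0.10. This list holds Flt3, with means of 474 CPM in Lepr- and 256 CPM in Lepr+ MPP and lower in 5 of 5 pairs itself. The sum is therefore largely Flt3 and not separate from the result for that gene above. Of 15 tested Hox genes 13 were positive, with a median of 0.58 and none past the test. For 18 tested granulocyte and monocyte progenitor genes the median was -0.09 in MPP and none passed. Type I interferon response genes had a median of 0.05, and 28 oxidative phosphorylation genes likewise 0.05. Mpo, the peroxidase of granulocyte precursors, had a mean of 130 CPM in Lepr- and 52.4 CPM in Lepr+ MPP, with an edgeR adjusted p of 1.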
